A study of Mus musculus with 15 samples.

Results

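The 10 genes described here encode acute-phase proteins and calgranulins: Orm1, Orm2, Saa1, Saa3, Lcn2, Hp, Lbp, S100a8, S100a9 and Ptx3. They were taken by name, through their Entrez IDs, from a table of 35794 IDs, and each had 1 row in it. The libraries hold polyadenylated RNA of the perigonadal fat pad, the depot beside the gonads, of C57BL/6 mice aged 14 weeks whose diets began at 8 weeks of age. Lean mice were fed chow (5 libraries), obese mice a 60% high-fat diet (5 libraries), where the labels imply but do not state that this went on to the end, and weight loss mice the same high-fat diet for 5 weeks followed by chow for 1 week (4 libraries). No genotype or transgene is given for any group, and the labels do not state the sex. A fat pad is a mixed tissue, and in such bulk RNA fewer cells of a type and less RNA per cell cannot be told apart.

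Acute-phase proteins are secreted proteins whose blood levels shift during infection or injury. The liver is their best known source, where cytokines of the interleukin-6 and interleukin-1 type act on their genes through the transcription factors STAT3, C/EBP and NF-kB, and fat tissue makes several of them as well. The calgranulins S100a8 and S100a9 are calcium-binding proteins that pair with each other and are abundant in neutrophils and monocytes.

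The 14 libraries used held 13924770 to 33807887 counts each. The column labelled weight loss replicate 5 summed to 230 counts, with 0 on the 10 genes, and was left out. Fabp4, an adipocyte fatty acid carrier, averaged 7418, 7214 and 7847 CPM in the lean, obese and weight loss groups, where CPM are counts per 1000000 of the scaled library size. It was the most abundant of 8 adipocyte markers, whose sum averaged 31154, 22891 and 27921 CPM in these groups. Their median log2 fold change in obese against lean fat was -0.28, with 2 of the 8 positive. Cfd, the 1 marker called there, averaged 10097 CPM in lean, 3686 CPM in obese and 7377 CPM in weight loss fat. Liver markers were low: a list of 8, headed by Alb (albumin), summed to between 8.24 and 33.4 CPM in every library. Transcripts of the epididymis, the organ that this pad adjoins in males, summed over 12 markers to 2717 CPM in lean replicate 1 and to 6626, 2761 and 5010 CPM in obese replicates 2, 4 and 5, against at most 544 CPM in each of the other 10 libraries. For the 10 genes, results are also given without those 4 libraries where that ended a call, which left 2 obese libraries. For genes of the other lists no such results are given, so their calls were not checked in this way.

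In obese against lean fat, 6 of the 10 genes rose: Orm1, Orm2, Saa3, Lbp, S100a8 and S100a9. Of all 15208 genes tested, 5.86% rose in that comparison, and none of the 10 was among the 3.85% that fell. Ptx3, Lcn2 and Hp did not pass, and Saa1 had too few reads to be tested. After 1 week back on chow, Orm1, Orm2, Lbp and S100a8 fell against obese fat, where 0.881% of all genes fell and 0.736% rose, 1.62% in all. Against lean fat none of the 9 genes tested passed after weight loss by edgeR's test, where 0.0329% of all genes did. There 1 gene, S100a9, had an unadjusted p under 0.05. DESeq2 called none of the 8 genes for which it gave an adjusted p, and gave none for S100a9. A gene was called at an adjusted p under 0.05 in edgeR's quasi-likelihood test, with Benjamini-Hochberg adjustment across the 15208 genes. S100a8 and S100a9 passed the filter on low counts only through their levels in obese fat, which favours a call for them. The comparisons of obese with lean and of weight loss with obese share the obese libraries, so a rise in the first and a fall in the second are not independent of each other.

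**Figure D1:**
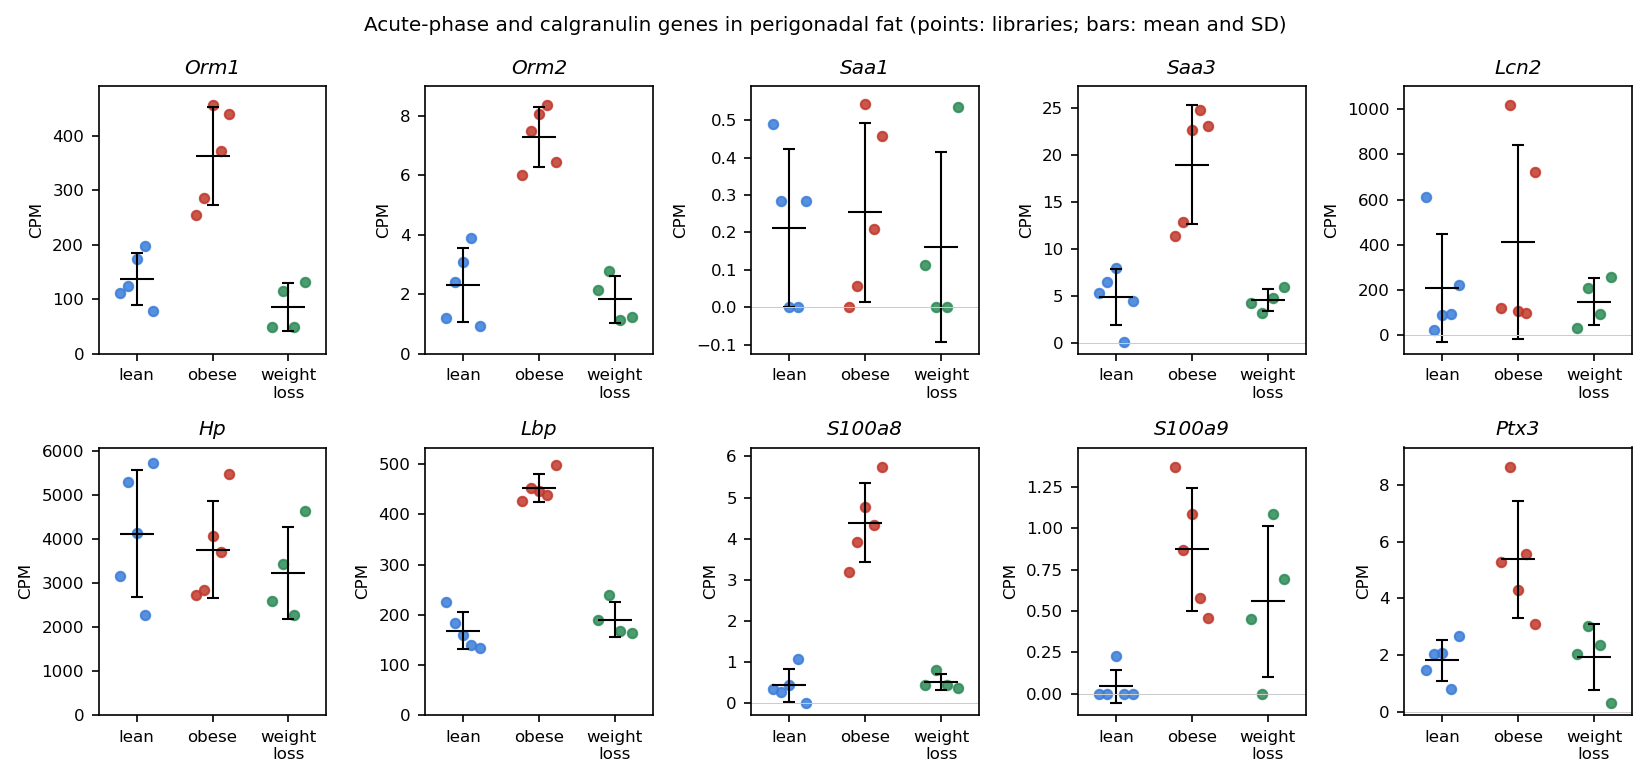
CPM of each of the 10 genes (vertical axes, linear, 1 scale per gene) in lean, obese and weight loss fat, where points are libraries and bars the mean and SD (n = 5, 5 and 4). Orm1, Orm2, Saa3, Lbp, S100a8, S100a9 and Ptx3 were higher in every obese library than in any lean library, while Hp, Lcn2 and Saa1 overlapped.

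The genes of most reads were carriers. Hp encodes haptoglobin, which binds free haemoglobin. Per kilobase of transcript it averaged 3061 CPM in lean, 2796 CPM in obese and 2406 CPM in weight loss fat, and in each group its lowest library lay above the highest library of the next gene. Below it, Lcn2, Orm1 and Lbp stood between 66.7 and 468 CPM per kilobase. In obese fat Orm1 (468 CPM per kilobase) and Lcn2 (452 CPM per kilobase) overlapped, as did Lcn2 and Lbp (179 CPM per kilobase), and in lean and weight loss fat Lcn2 and Orm1 overlapped. Saa3 followed at 8.80, 34.2 and 8.20 CPM per kilobase in lean, obese and weight loss fat. Orm2, S100a8, Ptx3, S100a9 and Saa1 were at 9.40 CPM per kilobase or less in each group, and most neighbours among them overlapped. These lengths are those of the first listed transcript of each gene in GENCODE M21.

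Orm1, Orm2 and Orm3 encode orosomucoids, or alpha-1-acid glycoproteins, small plasma lipocalins that carry basic drugs and lipids. They lie side by side on chromosome 4 of mm10: Orm1 at 63344556 to 63348163, Orm3 at 63356069 to 63359506 and Orm2 at 63362449 to 63365877. Orm1 stood at 111, 125, 174, 197 and 77.5 CPM in lean replicates 1 to 5 and at 255, 286, 457, 373 and 441 CPM in obese replicates 1 to 5. After weight loss it stood at 49.2, 115, 48.2 and 132 CPM in replicates 1 to 4. Every obese library lay above every lean and every weight loss library, and lean and weight loss libraries overlapped. The rise in obese fat was 2.65-fold (log2 1.40 ± 0.32 SE, adjusted p = 0.0135). The fall after weight loss was 4.21-fold (log2 -2.07 ± 0.35, adjusted p = 0.00708). After weight loss against lean fat the log2 difference was -0.67 ± 0.33 (adjusted p = 0.468).

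Orm2 was far less abundant and followed the same order of groups. It stood at 1.20, 2.41, 3.07, 3.89 and 0.922 CPM in lean replicates 1 to 5, at 6.03, 7.49, 8.08, 8.38 and 6.46 CPM in obese replicates 1 to 5, and at 2.15, 2.80, 1.13 and 1.23 CPM in weight loss replicates 1 to 4. No obese library overlapped another group. The rise in obese fat was 3.16-fold (log2 1.66 ± 0.38, adjusted p = 0.0139) and the fall after weight loss 3.99-fold (log2 -1.995 ± 0.41, adjusted p = 0.0241). The Orm transcripts are alike, so reads could be shared out between them in a way the sources used here do not give. Of all stretches of 50 bases in the Orm2 transcript, 20.4% occur unchanged in Orm1 and 3.58% in Orm3, and every Orm2 value was fractional. With the counts of Orm1, Orm2 and Orm3 summed to 1 row, the sum still rose in obese fat (log2 1.25 ± 0.29, adjusted p = 0.0147) and fell after weight loss (log2 -1.75 ± 0.31, adjusted p = 0.00987).

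Orm3 did not pass in any comparison. It averaged 35.7 ± 8.8 CPM in lean (SD, n = 5), 45.3 ± 10 CPM in obese (SD, n = 5) and 35.05 ± 16 CPM in weight loss fat (SD, n = 4), and its log2 change in obese fat was 0.34 ± 0.26 (adjusted p = 0.46). The log2 ratio of Orm1 to Orm3 counts within a library was 2.18, 1.97, 1.85, 2.502 and 0.99 in lean replicates 1 to 5, 2.66, 2.56, 3.00, 2.91 and 3.86 in obese replicates 1 to 5, and 1.12, 1.55, 1.13 and 1.23 in weight loss replicates 1 to 4. The obese ratios all lay above those of both other groups, and lean and weight loss ratios overlapped. The exact two-sided permutation test of that ratio gave p = 0.00794 for obese against lean fat over 252 arrangements and p = 0.00794 for weight loss against obese fat over 126, each the smallest value its design allows. Adjusted over the 4 ratio tests made, exact p was 0.0159 for both. Weight loss against lean fat gave an exact permutation p of 0.0714 (adjusted 0.0873). The ratio was chosen after Orm1 was seen to separate the groups and Orm3 not to, so these values are no independent support for a difference.

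The stretch before the start of transcription, as RefSeq places it, is shown for the neighbours Orm2, which was called in both comparisons with obese fat, and Orm3, which was called in none. Whether the responses of Orm2 and Orm3 differed was not tested. Each stretch runs from 10 bases before its first motif match up to the start. Capitals mark matches to the C/EBP motif TTNNGNAA on either strand or to the TATA box TATAAA, and no matches overlap. Sequences are from RefSeq on GRCm38.p6, the assembly also named mm10. Orm1 had no entry in the sequence table used. Orm2 (chr4:63362319-63362448, plus strand) held 2 C/EBP matches and a TATA box, and Orm3 (chr4:63356027-63356157, plus strand) held 1 C/EBP match and a TATA box. The start used for the Orm3 sequence lies inside the gene span given above, so most of its stretch, the TATA box included, falls within that span.
Orm2: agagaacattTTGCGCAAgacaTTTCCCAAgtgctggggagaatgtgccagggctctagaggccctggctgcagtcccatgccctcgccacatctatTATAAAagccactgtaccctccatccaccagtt
Orm3: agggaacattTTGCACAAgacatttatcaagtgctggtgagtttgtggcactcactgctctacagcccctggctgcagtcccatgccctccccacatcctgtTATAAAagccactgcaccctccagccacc

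Lbp encodes lipopolysaccharide-binding protein, which hands bacterial lipopolysaccharide to the receptor CD14, and lies on chromosome 2 (158306493 to 158332852). Within each group its highest library was 1.17 to 1.70 times its lowest, a smaller ratio than for any other of the 10 genes. Lbp stood at 226, 184, 159, 140 and 133 CPM in lean replicates 1 to 5, at 427, 452, 446, 439 and 499 CPM in obese replicates 1 to 5, and at 189, 239, 167 and 163 CPM in weight loss replicates 1 to 4. Every obese library was above every other library, while lean and weight loss libraries overlapped. Lbp rose 2.69-fold in obese fat (log2 1.43 ± 0.15, adjusted p = 7.9e-05) and fell 2.39-fold after weight loss (log2 -1.26 ± 0.16, adjusted p = 0.00116). Weight loss against lean fat gave a log2 difference of 0.17 ± 0.16, with a 95% interval from -0.16 to 0.50. Lbp was the 1 gene of the 10 called in both comparisons without the 4 libraries rich in epididymal transcripts, at an adjusted p of 0.00625 in obese fat and 0.0407 after weight loss. Orm1, Orm2 and S100a8 kept log2 values of 1.32, 1.45 and 3.11 in obese fat and -2.05, -1.95 and -2.91 after weight loss without those libraries, with adjusted p of 0.133 to 0.439, and Saa3 and S100a9 kept 1.83 and 4.05 in obese fat (adjusted p = 0.349 and 0.214).

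Saa1 and Saa3 encode serum amyloid A proteins, which travel on high-density lipoprotein, and Saa3 is the form made largely outside the liver. Both lie on chromosome 7, Saa3 at 46711998 to 46719615 and Saa1 at 46740497 to 46743181. Saa3 stood at 5.35, 6.46, 8.00, 0.134 and 4.47 CPM in lean replicates 1 to 5, at 11.4, 12.9, 22.7, 24.8 and 23.1 CPM in obese replicates 1 to 5, and at 4.23, 3.20, 4.79 and 5.98 CPM in weight loss replicates 1 to 4. Lean replicate 4, with 2 counts, was far below the rest of its group, and no obese library overlapped either other group. Saa3 rose 3.87-fold in obese fat (log2 1.95 ± 0.55, adjusted p = 0.0385). That call lay near the threshold: adjusted p was 0.0562 to 0.0836 without any 1 of lean replicates 1, 2 and 5 or obese replicates 2, 3, 4 and 5, 0.0591 when only both groups were fitted and 0.127 with the epididymal level as a covariate.

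After weight loss the log2 value of Saa3 was -2.06 ± 0.60 (adjusted p = 0.113). It passed without lean replicate 4 (adjusted p = 0.00256), with DESeq2 (0.00649) and with only both groups fitted (0.00638), and in none of the other 27 alternatives. Saa1 had 0 to 13 counts in each library, or at most 0.542 CPM, and Saa2, whose transcript shares 13.3% of its stretches of 50 bases with Saa1, had at most 10 counts. At this depth no difference in Saa1 could be shown, and a count of 0 allows up to 0.0887 to 0.215 CPM, by counting error only.

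S100a8 and S100a9 lie near each other on chromosome 3, at 90669071 to 90670034 and 90692630 to 90695721. S100a8 had 8, 4, 10, 16 and 0 counts in lean replicates 1 to 5, which is 0.357, 0.284, 0.452, 1.07 and 0 CPM. In obese replicates 1 to 5 it stood at 3.19, 3.92, 4.77, 4.35 and 5.75 CPM. In weight loss replicates 1 to 4 it had 8.01, 16, 10 and 7.09 counts, which is 0.452, 0.813, 0.452 and 0.374 CPM. The obese group stood clear of both others, and lean and weight loss libraries overlapped. The rise in obese fat was 10.01-fold (log2 3.32 ± 0.57, adjusted p = 0.00264) and the fall after weight loss 8.32-fold (log2 -3.06 ± 0.61, adjusted p = 0.0191). The fall missed the threshold without weight loss replicate 1 (adjusted p = 0.0555), 3 (0.0744) or 4 (0.0639).

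S100a9 had 5 counts in lean replicate 3 and 0 in each other lean library. In obese replicates 1 to 5 it stood at 1.37, 0.870, 1.09, 0.576 and 0.459 CPM, and in weight loss replicates 1 to 4 at 0.452, 0, 1.08 and 0.694 CPM. Obese and weight loss libraries overlapped here, unlike for S100a8. S100a9 rose in obese against lean fat (log2 3.88 ± 1.031, adjusted p = 0.0291), a fitted fold that depends on the prior count because 4 lean libraries were at 0. Adjusted p was 0.0533 to 0.0667 without any 1 of lean replicates 1, 2, 4 and 5 or obese replicates 1, 2 and 3. After weight loss the log2 value was -0.63 ± 0.86 against obese fat (adjusted p = 0.818, 95% interval -2.47 to 1.22) and 3.25 ± 1.07 against lean fat (adjusted p = 0.269).

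Of the counts on both calgranulins, S100a8 took 69.9% to 92.6% in the obese libraries and 50.04%, 100%, 29.0% and 35.3% in weight loss replicates 1 to 4. The exact two-sided permutation test of that share gave p = 0.0873 over 126 arrangements (adjusted over the 4 ratio tests 0.0873), so a difference between both genes in their response was not shown. Of 12 neutrophil markers 7 were tested and none passed in any comparison by edgeR, with a median log2 of -0.38 in obese against lean fat beside -0.02 over all genes. Their summed level was 32.0 to 85.7 CPM in lean, 23.9 to 56.4 CPM in obese and 28.4 to 38.6 CPM in weight loss fat. The highest lean and obese sums were those of lean replicate 1 and obese replicate 4, 2 of the 4 libraries rich in epididymal transcripts. Ltf carried both, at 56.8 and 27.4 CPM, and the source of that Ltf was not tested. The most abundant marker, Cxcr2, was at 21.2, 16.3 and 19.6 CPM in lean, obese and weight loss fat, and Ly6g was at 0 in every library. The markers did not move one way: Retnlg had a log2 value of 3.05 ± 1.01 in obese against lean fat (adjusted p = 0.0711), with lean and obese means of 0.0902 and 0.906 CPM, Csf3r 0.30 ± 0.22 (adjusted p = 0.442) and Elane -1.03 ± 0.33 (adjusted p = 0.0595). Mmp8, too low to be tested, averaged 0.00892 CPM in the lean and 0.239 CPM in the obese libraries. Of 10 macrophage markers 9 rose in obese fat, among them C1qa, Ctss, Cd68 and C1qc, their sum running from 433 to 948 CPM in lean, 1011 to 1544 CPM in obese and 595 to 1383 CPM in weight loss fat. None of these 10 passed after weight loss against obese fat. Of 5 monocyte markers 1, the chemokine receptor Ccr2, rose (log2 1.69 ± 0.32), their sum running from 36.5 to 136 CPM in lean, 120 to 249.7 CPM in obese and 81.7 to 143 CPM in weight loss fat. The part of these cells in the calgranulin result was not tested.

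The stretches before both calgranulin starts and before Saa3 are shown because these 3 genes rose in obese fat from low lean levels, with capitals as above. S100a8 (chr3:90668944-90669070, plus strand) held 1 C/EBP match and a TATA box, S100a9 (chr3:90695722-90695967, minus strand) 2 C/EBP matches and Saa3 (chr7:46715677-46715902, minus strand) 4 C/EBP matches. The whole Saa3 stretch lies inside the gene span given above, since the start used for its sequence lies further in.
S100a8: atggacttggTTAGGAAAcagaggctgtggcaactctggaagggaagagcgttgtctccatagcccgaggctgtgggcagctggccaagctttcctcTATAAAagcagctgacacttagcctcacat
S100a9: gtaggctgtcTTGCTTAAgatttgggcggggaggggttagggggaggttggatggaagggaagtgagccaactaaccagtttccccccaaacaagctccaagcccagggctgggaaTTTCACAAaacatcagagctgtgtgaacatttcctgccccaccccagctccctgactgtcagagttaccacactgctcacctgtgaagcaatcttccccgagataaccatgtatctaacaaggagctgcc
Saa3: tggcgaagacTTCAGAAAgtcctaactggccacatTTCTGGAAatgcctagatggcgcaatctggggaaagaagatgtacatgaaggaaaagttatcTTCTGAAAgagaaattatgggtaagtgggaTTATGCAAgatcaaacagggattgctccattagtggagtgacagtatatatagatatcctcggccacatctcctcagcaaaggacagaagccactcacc

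Of the 10 genes, 7 had a promoter in the table (all but Orm1, Hp and Lbp). Within 250 bases before the RefSeq start, each of the 7 held at least 1 C/EBP match, as did 36.8% of all 32851 promoters. All C/EBP matches of Saa1 and Saa3 lie inside their gene spans given above, since the starts used for their sequences lie further in. The TATA box was present in Orm2 and S100a8, and in 12.4% of all promoters. Searched on both strands, none of the 7 held the STAT3 motif TTCNNNGAA (7.02% of all promoters), the NF-kB motif (7.25%) or the glucocorticoid receptor motif (0.387%). A match describes letters in this window, and Lcn2, which passed in no comparison, held a C/EBP match as well.

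Ptx3 encodes the long pentraxin, a soluble pattern recognition protein made by vessel, stromal and myeloid cells, and lies on chromosome 3 (66219887 to 66225806). It stood at 1.47, 2.06, 2.08, 0.804 and 2.70 CPM in lean replicates 1 to 5, at 5.29, 8.62, 4.29, 5.55 and 3.10 CPM in obese replicates 1 to 5, and at 2.03, 3.05, 2.35 and 0.32 CPM in weight loss replicates 1 to 4. Obese libraries lay above all others, the lowest by a small margin. The log2 values were 1.56 ± 0.47 in obese against lean fat (adjusted p = 0.0512) and -1.47 ± 0.51 after weight loss (adjusted p = 0.184). The first lay at the threshold and passed in 8 of 30 alternatives, with adjusted p from 0.011 to 0.434.

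By range alone, 7 of the 10 genes had obese libraries all above lean ones, as had 6.04% of the genes tested, with 4.31% lower and none of the 10 among them. Weight loss libraries lay all below obese ones for 6 of the 10, as for 3.27% of the genes tested, and all above for none, against 3.38%. Weight loss and lean libraries overlapped for all 10, where 1.58% of the genes tested lay apart upwards and 0.704% downwards. S100a8 and S100a9 are among the 7, and S100a8 among the 6. Both passed the filter on low counts only through their levels in obese fat, which favours such a separation. Saa1, 1 of the 10, was not tested, while the shares are over genes tested.

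**Figure D2:**
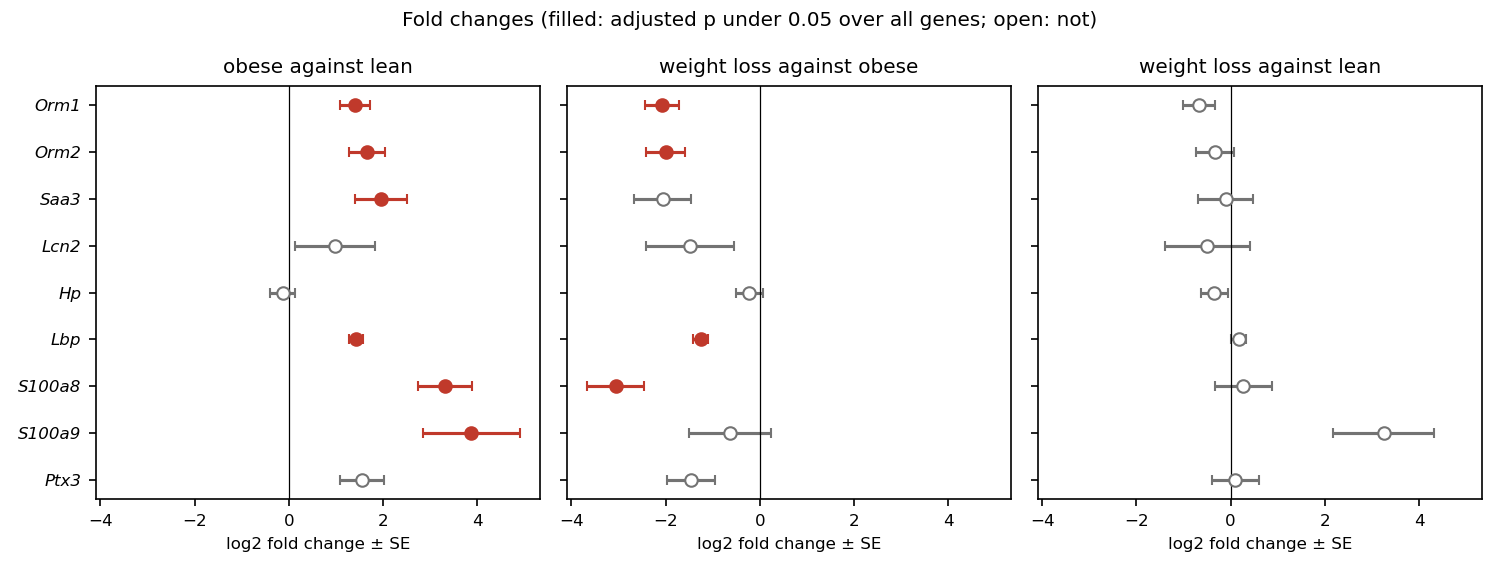
Log2 fold changes ± SE (horizontal axes) of the 9 genes tested in the 3 comparisons, filled where the adjusted p over all genes was under 0.05. The 6 filled points in obese against lean fat lie between 1.40 and 3.88, the 4 in weight loss against obese fat between -3.06 and -1.26, and no point is filled in weight loss against lean fat.

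Hp (chromosome 8, 109575128 to 109579172) did not pass in any comparison, and its groups overlapped throughout. It ran from 2261 to 5724 CPM in lean (median 4140 CPM), from 2729 to 5472 CPM in obese (median 3694 CPM) and from 2281 to 4626 CPM in weight loss fat (median 3018 CPM). The log2 value in obese against lean fat was -0.13 ± 0.27 (adjusted p = 0.814), with a 95% interval from -0.70 to 0.44, which holds no change as large as that of Orm1 or Lbp. Hp took 87.5 ± 7.2% of the summed CPM of the 10 genes in lean (SD, n = 5), 74.6 ± 7.5% in obese (SD, n = 5) and 88.2 ± 2.0% in weight loss fat (SD, n = 4). The sum of the other 9 ran from 344 to 959 CPM in lean, 832 to 1790 CPM in obese and 278 to 575 CPM in weight loss fat. Of the highest sums, Lcn2 made up 613 CPM in lean replicate 1 and 1018 CPM in obese replicate 2. Both libraries were rich in epididymal transcripts, and their Hp shares, 76.7% and 61.4%, depend on Lcn2 as well.

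Lcn2 encodes lipocalin-2, which binds bacterial siderophores and so withholds iron, and lies on chromosome 2 (32384637 to 32387739). It stood at 613, 23.9, 88.0, 96.4 and 224 CPM in lean replicates 1 to 5, at 122, 1018, 109, 99.3 and 721 CPM in obese replicates 1 to 5, and at 30.2, 211, 95.3 and 256 CPM in weight loss replicates 1 to 4. Lean replicate 1 and obese replicates 2 and 5 lay far above the rest of their groups, and the groups overlapped. The 3 highest, obese replicates 2 and 5 and lean replicate 1, were 3 of the 4 libraries richest in epididymal transcripts. The fourth, obese replicate 4, had Lcn2 at 99.3 CPM beside an epididymal sum of 2761 CPM. By the mean log2 CPM over the markers, those 3 libraries stood at 6.46 to 7.22, obese replicate 3 at 3.48 with Lcn2 at 109 CPM, and obese replicate 4 at 2.27. The part of epididymal RNA in the Lcn2 level was not tested.

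The log2 value of Lcn2 in obese against lean fat was 0.98 ± 0.85 (adjusted p = 0.533), and -1.48 ± 0.93 after weight loss against obese fat (adjusted p = 0.525). Without the 4 libraries they were 0.10 ± 0.79 (adjusted p = 0.982) and 0.36 ± 0.81 (adjusted p = 1). In the 10 other libraries Lcn2 ran from 23.9 to 224 CPM in lean, 109 to 122 CPM in obese and 30.2 to 256 CPM in weight loss fat. The libraries left out included the highest in Lcn2 of both the lean and the obese group, so the choice itself bears on the smaller change. With a standard error of 0.79, the value of 0.10 cannot tell no change from one of 0.98. Whether epididymal RNA made the difference was not tested.

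**Figure D3:**
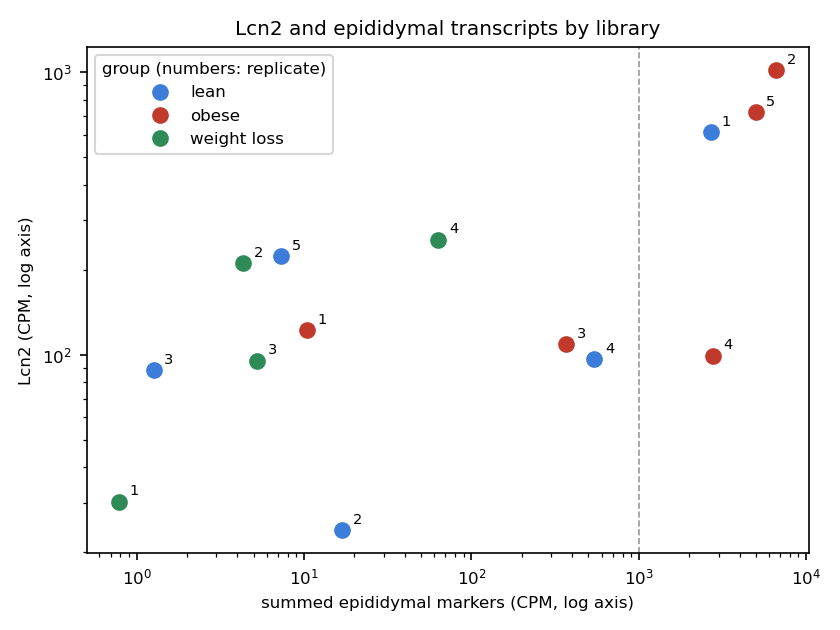
Lcn2 (vertical, CPM, log axis) against the summed CPM of 12 epididymal markers (horizontal, log axis) in each of the 14 libraries, numbered by replicate, with a dashed line at 1000 CPM. Lean replicate 1 and obese replicates 2 and 5, at 613, 1018 and 721 CPM of Lcn2, stand apart at the upper right, and obese replicate 4 lies beyond the line at 99.3 CPM.

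Other genes of the response were read from lists drawn up with earlier results of these data known. Of 27 other acute-phase genes 18 were tested in obese against lean fat, and 2 rose, 2 fell and 14 did not pass (9.71% of all genes passed in either direction). The median log2 was 0.14 beside -0.02 over all genes. Cfb, complement factor B, rose from 221 ± 31 CPM in lean (SD, n = 5) to 447 ± 32 CPM in obese fat (SD, n = 5; log2 1.01 ± 0.13, adjusted p = 0.000388) and fell to 295 ± 61 CPM after weight loss (SD, n = 4; log2 -0.60 ± 0.14, adjusted p = 0.0468). Il1rn, the interleukin-1 receptor antagonist, rose from 0.529 to 3.75 CPM (log2 2.76 ± 0.77). Agt, angiotensinogen, fell from 797 ± 184 to 423 ± 33 CPM (log2 -0.92 ± 0.16, adjusted p = 0.00305) and rose after weight loss to 763 ± 165 CPM (log2 0.85 ± 0.17, adjusted p = 0.0178). Itih4, an inter-alpha-trypsin inhibitor chain, fell from 10.3 to 2.63 CPM (log2 -1.96 ± 0.36). The most abundant of the list, C4b of the complement system, stood at 1202, 1360 and 1880 CPM in lean, obese and weight loss fat and did not pass. After weight loss against obese fat 1 of the 18 rose and 1 fell.

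Cytokines known to induce acute-phase genes were scarce. Il6 averaged 0.0777 CPM in obese and 0.0178 CPM in lean fat, and Il1b 0.587 and 0.318 CPM, neither enough to be tested. Of 18 cytokine and receptor genes 13 were tested and none passed by edgeR in any comparison, including Il6st, the shared signalling chain of the interleukin-6 family, at 252, 217 and 266 CPM in lean, obese and weight loss fat. Of 18 genes for signalling proteins and transcription factors, all tested, 1 fell in obese fat, Cebpa (log2 -0.57 ± 0.11), and none passed after weight loss. Stat3 stood at 148, 154 and 164 CPM in lean, obese and weight loss fat, and Socs3, a feedback inhibitor induced by STAT3, at 10.2, 10.2 and 11.5 CPM. Transcript levels do not measure the activity of these proteins.

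Of 16 genes for receptors and partners of the 10 proteins, 3 rose and 1 fell in obese fat and none passed after weight loss by edgeR. Ly96, the MD-2 partner of the lipopolysaccharide receptor, rose from 3.72 to 6.92 CPM (log2 0.89 ± 0.25), as did the complement chain gene C1qa (log2 1.14 ± 0.24) and the IgG receptor gene Fcgr2b (log2 1.05 ± 0.23). Mmp9, a protease that lipocalin-2 binds, fell from 15.4 to 7.60 CPM (log2 -1.02 ± 0.28). Of the genes for lipopolysaccharide receptors, Tlr4 and Cd14 had log2 values of 0.19 ± 0.28 and -0.04 ± 0.28 and did not pass. The haptoglobin receptor Cd163 had 0.82 ± 0.28 (adjusted p = 0.0775). The most abundant of the list, the scavenger receptor Cd36, stood at 1171, 1756 and 1694 CPM in lean, obese and weight loss fat (adjusted p = 0.0572 in obese against lean fat).

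Of 15 other S100 genes 10 were tested in obese fat, and 4 rose and none fell: S100a4 (log2 2.63 ± 0.27), S100a11 (0.83 ± 0.10), S100a10 (0.88 ± 0.12) and S100a6 (0.78 ± 0.14). The median of the 10 was 0.69. S100a11, the most abundant, stood at 653 ± 45 CPM in lean (SD, n = 5) and 1164 ± 73 CPM in obese fat (SD, n = 5), and fell to 748 ± 111 CPM after weight loss (SD, n = 4; log2 -0.64 ± 0.11, adjusted p = 0.00793). S100a4 stood at 12.3, 76.4 and 37.1 CPM in lean, obese and weight loss fat, and its log2 values after weight loss were -1.04 ± 0.28 against obese fat (adjusted p = 0.0816) and 1.59 ± 0.28 against lean fat (adjusted p = 0.0557).

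**Figure D4:**
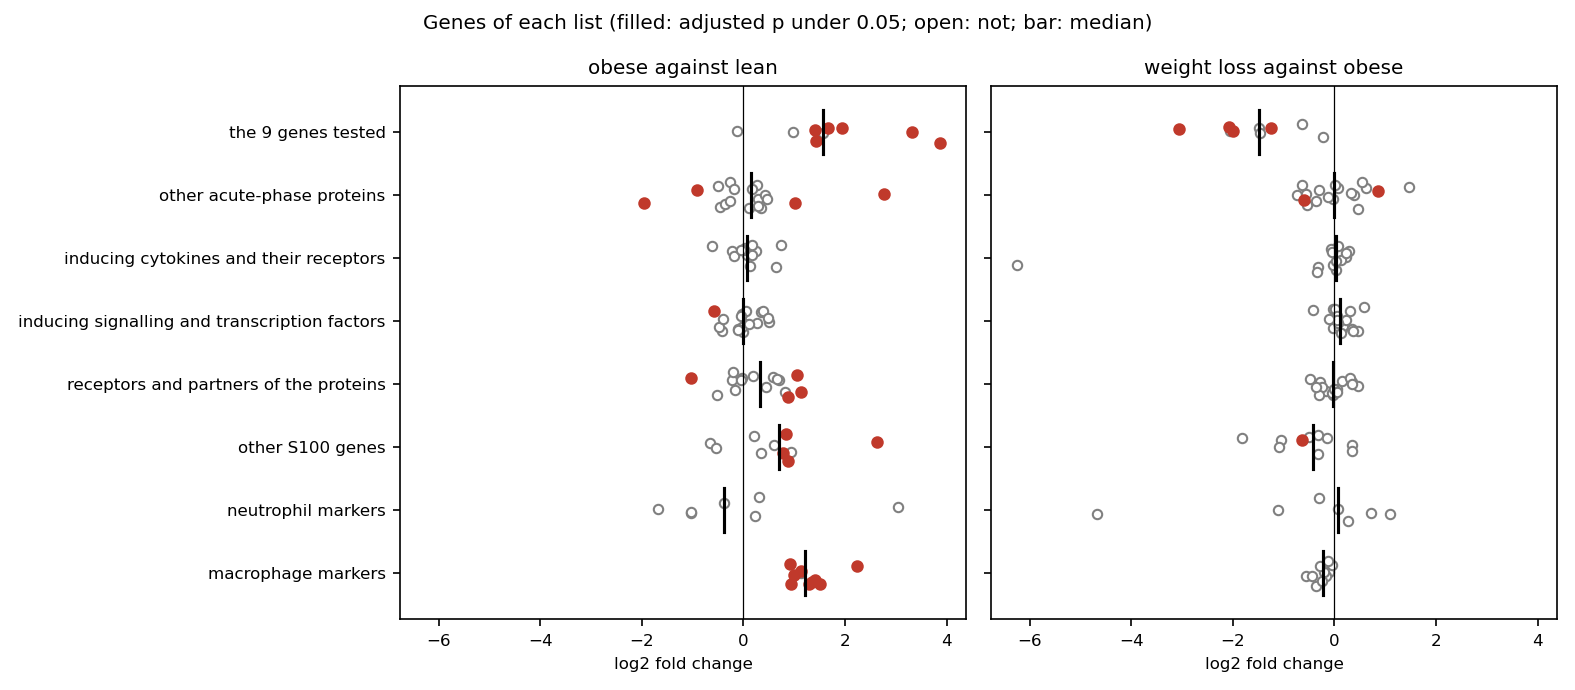
Log2 fold changes (horizontal) of single genes by list in obese against lean fat and weight loss against obese fat, filled where the adjusted p over all genes was under 0.05, with a bar at each list's median. The cytokine and signalling lists centre near 0 in both panels, with medians of 0.08 and -0.02 at left, while 9 of 10 macrophage markers are filled at left and none at right.

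The genes whose log2 CPM was most like that of each gene over the 14 libraries were found by Pearson correlation, which here reflects shared differences between the 3 groups as well as differences within them. For Lbp they were Cryab (0.98), Trp53inp2 (0.98) and Oxtr (0.97). For Orm1 they were Hfe (0.95), Aldh1a7 (0.95) and Timm22 (0.94), and for Orm2 Tatdn2 (0.94), S100a8 (0.92) and 9030619P08Rik (0.92). Saa3 was most like Bcl10 (0.91), Kcne1l (0.91) and Ddah2 (0.90), Ptx3 most like Gjc1 (0.93), Prnd (0.91) and Mcam (0.86), and Hp most like A430005L14Rik (0.96), Cbx8 (0.94) and Rps10 (0.92). Among the genes most like S100a8 were Lamb3 (0.94) and Dap (0.93), and S100a9 was most like the macrophage genes C1qb (0.96), C1qa (0.96) and C1qc (0.95). S100a9 was at 0 in 4 lean libraries and 1 weight loss library, so its correlations rest on few counts. Whether both calgranulins differ in their neighbours was not tested. Lcn2 was most like Bpi (0.98), Ddit4l (0.97) and Serinc2 (0.96).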

How the data were processed

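Poly(A) RNA of perigonadal fat was sequenced in 15 libraries. The authors deposited raw expected counts by Entrez ID, of which 34.8% were fractional. The build was mm10, per the submitters' processing notes. How reads were aligned, counted and shared between genes is not given in the sources used here. Symbols came from RefSeq for 32919 of 35794 IDs. Counts were rounded, and libraries under 1000000 counts were left out, a limit set knowing the totals.

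Genes were kept by filterByExpr by group, scaled by TMM and tested in 1 fit of 3 groups with edgeR 4.0.16 in R 4.3.3 (estimateDisp, glmQLFit, glmQLFTest, two-sided). Standard errors were obtained as |log2 fold change| divided by √F. The labels do not say that libraries came from separate animals, though the design text calls them independent (4 of them for weight loss); p-values measure the spread between libraries. No 2 libraries of a group agreed within sampling noise. The test was also run on data simulated from its own fitted model, which does not bear on the single calls given here. Alternatives used DESeq2 1.42.0 and limma 3.58.1, and figures matplotlib 3.10.9.

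Motifs were searched on both strands. The genes, the 14 lists and the tests were chosen with earlier results of these data known. Named are all 10 genes, up to 4 called genes per list and comparison with the smallest p, the most abundant gene of a list, and the 3 most correlated genes with a mean log2 CPM of at least 0, of which 1 is not reported here. Further genes named (Stat3, Socs3, Il6, Il1b, Tlr4, Cd14, Cd163, Orm3, Saa2, Ly6g, Retnlg, Csf3r, Elane, Ltf, Mmp8) were added after their values were seen. Other lists changed in obese fat as follows: 1 of 8 adipocyte markers fell, and 1 of 9 mesothelial, 4 of 7 progenitor, 0 of 4 endothelial, 1 of 11 epididymal and 0 of 6 liver markers tested rose; none of these lists had a call in the other comparisons.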

Additional observations from a re-analysis of the deposited data

Results flagged for a closer look

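S100a9 in lean replicate 3 stood at 0.226 CPM, far from the other 4 lean libraries, which were all at 0 (5 counts against none). Of the 30 sets of values looked at (10 genes in 3 groups), only this 1 had a highest or lowest library apart by Dixon's criterion. With the other 4 libraries at 0, any count meets that criterion. The share of about 0.05 of sets marked by chance does not apply to such a set.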

How the results depend on the processing

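Of 801 recomputed fold changes (9 genes, 3 comparisons, 30 alternatives where the gene was tested), 727 kept direction and side of the threshold, 44 lost a call, 11 gained one and 19 changed sign, each of these 19 for a gene not called in the comparison concerned. Of the 10 genes, those called in obese against lean fat numbered 2 (not 6) at an adjusted p of 0.01 and 1 without the 4 libraries over 1000 CPM of epididymal markers, and 4 to 7 with any 1 library left out. In weight loss against obese fat they numbered 2 (not 4) at 0.01, 1 with the epididymal level as a covariate, 1 without those 4 libraries, and 2 to 5 with any 1 library left out, the 2 being without weight loss replicate 1, 3 or 4. Orm2 in that comparison missed the threshold without obese replicate 3 (adjusted p = 0.058) or 4 (0.0591) or weight loss replicate 1 (0.0504), 3 (0.0871) or 4 (0.071). With the epididymal covariate Orm1 had an adjusted p of 0.0616 in obese fat and 0.108 after weight loss. The fits without the 4 libraries also had fewer libraries to test. No share of all genes called is given for any alternative in this section, the replicate block included. These counts therefore cannot tell a loss of calls among the 10 genes from one across all genes. The cause of the lower numbers of calls, there or with the covariate, was not tested.

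Sign changes, as log2 values: Lcn2 with the epididymal covariate went to -0.31 (obese against lean), 0.82 (weight loss against obese) and 0.51 (weight loss against lean), and without the 4 libraries to 0.36 and 0.46 in the latter comparisons. Hp in obese against lean fat went to 0.0171 without lean replicate 5. In weight loss against lean fat, limma-voom gave 0.47 for Saa3 and -0.15 for Ptx3, and with quality weights 0.61 for Saa3 and 0.00388 for Lcn2. With any 1 library left out, Hp in obese against lean fat ran from -0.34 to 0.0171, and in weight loss against lean fat Saa3 ran from -0.46 to 0.15, Lcn2 from -0.91 to 0.45, S100a8 from -0.0328 to 0.83 and Ptx3 from -0.21 to 0.41. There, without single libraries, Lcn2 was 0.45 (lean 1), Saa3 0.15 (lean 3) and 0.0303 (weight loss 2), Ptx3 -0.13 (lean 4), -0.21 (weight loss 2) and -0.0129 (weight loss 3), and S100a8 -0.0328 (lean 5) and -0.0242 (weight loss 2).

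The replicate numbers did not pair the libraries: over 13 same-number pairs the correlation of deviations from group means ran from -0.55 to 0.40, and 3 of 14 libraries correlated best with their own number. With the replicate number as a block, 6 genes were called in obese against lean fat, 3 in weight loss against obese fat (S100a8 at an adjusted p of 0.0647) and 0 in weight loss against lean fat. Ptx3 passed in obese fat with the block (log2 1.64, adjusted p = 0.0485), with Saa3 lost (adjusted p = 0.0808), and its log2 value in weight loss against lean fat turned to -0.0331. Scaling by DESeq2 size factors, library size or upper quartile changed no count among the 10 genes. Reads limit Saa1, S100a9 and lean S100a8, at 16 counts or fewer per lean library. They limit S100a8 in weight loss fat as well, at 7.09 to 16 counts per library.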
